A study of Homo sapiens with 9 samples.

Results

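The genes described here are the ZNF genes that MOLM13 cells transcribe at an appreciable level, 144 in number, among 59699 rows in each of the authors' deposited tables. They are the protein-coding genes whose symbol is ZNF followed by a number and whose mean normalised count over all libraries was at least 500. 4 genes were left out by name, ZNF692, ZNF276, ZNF653 and ZNF827, of which 2 pass that mean. The deposited tables hold 505 protein-coding ZNF genes, so that 357 others lay under the minimum. The members were selected on the mean over all libraries, and not on the fold changes or their tests, although the class was proposed with earlier results of these data known. That mean includes the drug libraries, so the selection is not fully independent of the changes. A gene near the minimum that rose can have passed only through the drug libraries, and one that fell can have been left out.

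MOLM13 is an established acute myeloid leukaemia cell line. RNA was sequenced after 72 h in 3 groups of 3 libraries each: cells with the solvent DMSO alone, cells with iberdomide (CC-220) at 1 µM, and cells with mezigdomide (CC-92480) at 50 nM. No group carried a further agent or a genetic change, every group is the same cell line, and the labels do not tell whether replicate libraries are separate cultures, which means that p-values may reflect only technical spread. The deposited tables give a mean over all 9 libraries and, for each drug, a log2 fold change over DMSO with its standard error (SE), but no value for a single library, so whether the libraries of 2 groups overlap cannot be stated. From the deposited means, the depth of the libraries was about 20900000 to 25300000 counted reads. In the deposited tables all 8 markers of this leukaemia line had a mean of at least 1210 normalised counts, while erythroid HBB and HBA1, megakaryocyte PF4 and T cell CD2 were listed at 0. Of 10 monocyte and macrophage markers, 7 were called higher under iberdomide and 8 under mezigdomide in the deposited tables, and none lower. Their part in the changes of the ZNF genes was not tested.

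ZNF genes form the largest class of human DNA-binding proteins. Most encode rows of C2H2 zinc fingers, small loops in which a pair of cysteines and a pair of histidines hold a zinc ion, and a large share also carry a KRAB box, which recruits the corepressor TRIM28 and, through it, silencing chromatin; many of these silence transposable elements. Iberdomide and mezigdomide bind cereblon, the substrate receptor of a ubiquitin ligase, and make it accept new substrates. The surface that cereblon recognises, the degron, lies in a zinc finger of the Ikaros family protein IKZF1, with a glycine after the second cysteine of the finger. RNA-seq measures transcripts, not proteins, so the degradation of a ZNF protein is not visible in these data.

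Because the degron sits in a finger, the coding DNA of the known IKZF1 finger and of the closest pattern in changed ZNF genes is shown first. The pattern searched in the translated coding sequences was glutamine, cysteine, any pair of residues, cysteine and glycine at the start of a C2H2 finger, written Q-C-x-x-C-G. The IKZF1 finger starts at residue 146 and is encoded at chr7:50382554-50382619 on the plus strand of GRCh38. The other lines show ZNF672, the member with the largest fall, and 4 of the members that rose most among those with the pattern. They lie at chr1:248847872-248847937 (plus strand), chr9:101408885-101408950 (plus), chr10:38055364-38055429 (plus), chr10:42593813-42593878 (minus) and chr19:9610500-9610565 (minus), in the order printed. All are in coding exons of GENCODE 29, are written from 5′ to 3′ on the coding strand, and have in capitals the bases that encode Q-C-x-x-C-G.
IKZF1: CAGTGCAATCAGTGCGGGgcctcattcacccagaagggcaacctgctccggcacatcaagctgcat
ZNF672: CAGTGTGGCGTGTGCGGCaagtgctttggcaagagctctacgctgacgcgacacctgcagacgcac
ZNF189: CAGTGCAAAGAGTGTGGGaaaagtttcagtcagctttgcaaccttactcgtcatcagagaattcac
ZNF33A: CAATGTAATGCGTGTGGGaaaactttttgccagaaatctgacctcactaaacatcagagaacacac
ZNF33B: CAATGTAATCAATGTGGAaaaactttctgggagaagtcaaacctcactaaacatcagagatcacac
ZNF561: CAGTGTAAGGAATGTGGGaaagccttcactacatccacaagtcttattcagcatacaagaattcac
At the 22 residues of the printed finger, ZNF189 and ZNF33B each had 12 in common with IKZF1, ZNF33A had 11, and ZNF672 and ZNF561 had 9 each. ZNF189, ZNF33A and ZNF33B have further fingers with the pattern, and the finger with the most residues in common is printed. The fingers not printed had 9 in common in ZNF189, 10 in ZNF33A, and 11 and 10 in ZNF33B. Other members reached 12 as well: ZNF282 and ZNF526, called under neither drug, and ZNF551, called higher under iberdomide only. All these counts include the glutamine, cysteines, glycine and histidines that the search required, so the shared frame of the finger follows from the search. Over much of the rest the printed fingers differ from IKZF1.

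In both treatments the ZNF genes lay, as a class, slightly above their DMSO level, and more of them rose than fell. Under iberdomide 28 of the 144 rose and 2 fell at an adjusted p under 0.05 in the authors' deposited Wald test with Benjamini-Hochberg adjustment over all genes tested. These are 19.4% and 1.39% of the members, beside 7.3% higher and 6.77% lower of all 19497 genes tested, and 9.72% higher and 8.08% lower of the 7797 protein-coding genes with the same minimum mean. Under mezigdomide the deposited test called 36 members higher and 8 lower, or 25% and 5.56%. The background there was 10.4% higher and 10.7% lower of 20819 genes, and 14.8% and 15.5% of the protein-coding genes with the same minimum mean. The higher share of the members was thus above both backgrounds under each drug, and the lower share below both. No test of the class against other genes was made.

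The size of the shift was small. The median log2 fold change of the members in the deposited iberdomide table was 0.08, a fold of 1.06, with an interquartile range from -0.01 to 0.23, and 104 of 144 were above 0. In the deposited mezigdomide table the median was 0.14, a fold of 1.10, with an interquartile range from 0.00 to 0.25, and 109 members were above 0. The medians of the protein-coding genes with the same minimum mean were -0.01 under both drugs. The spread among members, an SD of 0.19 under iberdomide and 0.25 under mezigdomide, was larger than the median SE of a single member, 0.098 under each drug. The deposited values are shrunk towards 0, which understates the change of low genes most. No member changed as much as 2-fold on that scale: the values ran from -0.62 to 0.66 under iberdomide and from -0.64 to 0.78 under mezigdomide.

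**Figure D1:**
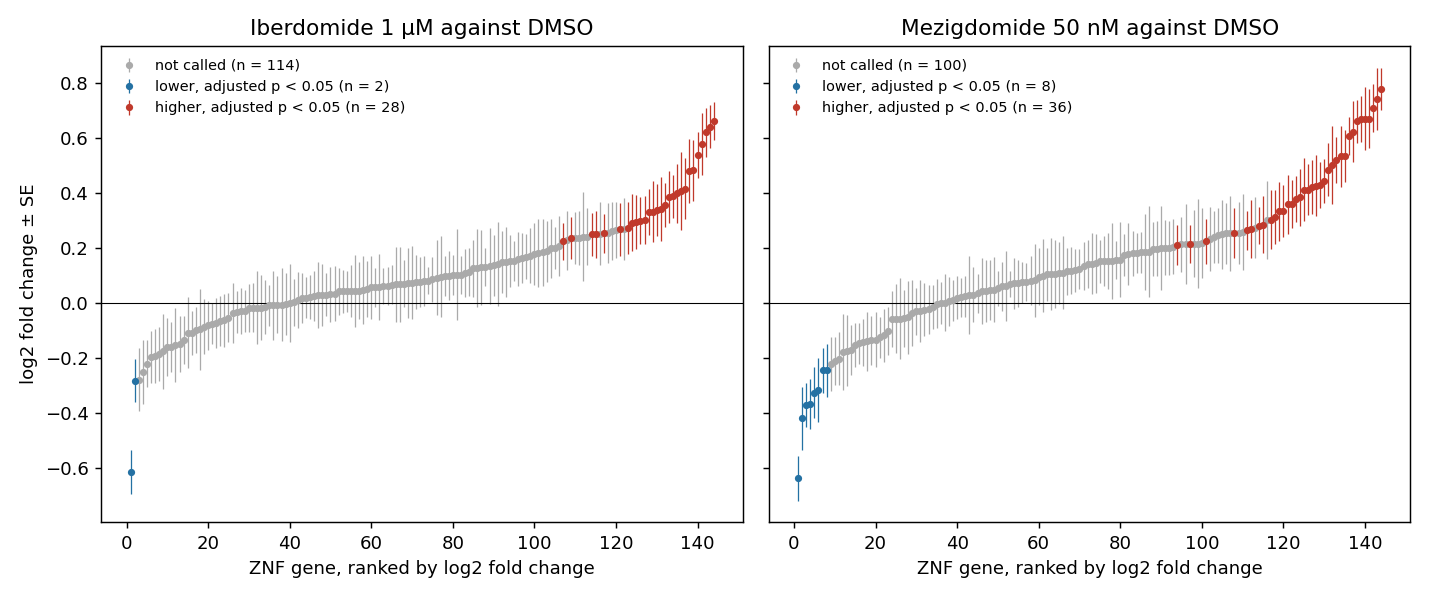
Log2 fold change over DMSO (vertical axis) of the 144 ZNF genes, ranked from lowest to highest for each drug (horizontal axis), from the authors' deposited tables. Points are single genes, bars are ± 1 SE, and red and blue mark an adjusted p under 0.05; 28 rose and 2 fell under iberdomide, 36 and 8 under mezigdomide.

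Several of the genes that rose most encode KRAB zinc finger proteins whose targets are little known. ZNF627 (ENSG00000198551.10, chromosome 19, 11559374 to 11619135, plus strand), with a mean of 960 normalised counts, had a log2 fold change of 0.64 (SE 0.078) under iberdomide and 0.78 (SE 0.078) under mezigdomide in the deposited tables. Its adjusted p values in the deposited Wald test were 1.63e-14 and 8.32e-22, and its fold of 1.72 under mezigdomide was the largest among the members. ZNF641 (chromosome 12, 48337180 to 48351414, minus strand), a KRAB gene whose mean of 506 was just inside the minimum, had values of 0.58 (SE 0.113) and 0.74 (SE 0.112) in the deposited tables. ZNF791 (chromosome 19, 12610918 to 12633840, plus strand) was the member with the highest value under iberdomide, 0.66 (SE 0.069), and had 0.61 (SE 0.069) under mezigdomide in the deposited tables. All 3 thus had higher values under both treatments, and ZNF641 can have passed the minimum mean only through its rise.

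ZNF629 (chromosome 16, 30778449 to 30787202, minus strand), which has 19 fingers and no KRAB box, had values of 0.62 (SE 0.089) and 0.71 (SE 0.088) in the deposited tables, behind ZNF791 and ZNF627 under iberdomide and behind ZNF627 and ZNF641 under mezigdomide. ZNF189 on chromosome 9 and ZNF33A on chromosome 10, which encode KRAB proteins with 16 fingers each, had 0.54 and 0.48 under iberdomide, and 0.67 each under mezigdomide, in the deposited tables. ZNF33B, the close relative of ZNF33A on the other arm of chromosome 10, had 0.34 and 0.54 in the deposited tables. Both genes rose under both drugs. They share sequence: 13.1% of the 37-base windows of ZNF33A also occur in ZNF33B, and 13.8% the other way, so that reads of the length used here can be hard to place and their values are uncertain to that extent. ZNF780A and ZNF780B, adjacent on chromosome 19, shared fewer windows (3.67% and 3.15%), and their values in the deposited tables were 0.40 and 0.33 under iberdomide and 0.67 and 0.43 under mezigdomide.

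ZNF746 (chromosome 7, 149472696 to 149497817, minus strand) encodes PARIS, a KRAB repressor of the gene of the mitochondrial regulator PGC-1α and a substrate of the ligase parkin. It had 0.39 (SE 0.079) under iberdomide and 0.66 (SE 0.078) under mezigdomide in the deposited tables, with adjusted p of 1.84e-05 and 1.06e-15 in the deposited Wald test. ZNF561 had 0.48 and 0.62, ZNF397 had 0.30 and 0.52, and ZNF557 had 0.25 and 0.43 in the deposited tables, and each was called under both drugs. The iberdomide calls of ZNF397 and ZNF557 were lost with a trend on GC content and transcript length taken out. ZNF710, with 11 fingers and no KRAB box, had 0.41 (SE 0.141) and 0.50 (SE 0.141) in the deposited tables and rose under both drugs, and it shares 16.1% of its exon bases with a gene on the opposite strand. ZNF185, on the X chromosome, had 0.36 and 0.44 in the deposited tables and also rose under both. It encodes an actin-associated LIM domain protein and, with ZNF330, was one of 2 members in which no C2H2 finger was found.

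Because the comparisons share their DMSO libraries, their calls are given side by side and no overlap is read from them. The 4 members called higher under iberdomide but not under mezigdomide were ZNF302 (0.25 and 0.12), ZNF551 (0.34 and 0.23), ZNF765 (0.27 and 0.20) and ZNF766 (0.24 and 0.18) in the deposited tables, all KRAB genes of chromosome 19. Their mezigdomide values were above 0 without passing the test, and the iberdomide calls of ZNF551, ZNF765 and ZNF766 were lost with a trend on GC content and transcript length taken out. Other small rises under iberdomide were those of ZNF266 (0.22), ZNF512 (0.25), ZNF124 (0.27) and ZNF260 (0.29) in the deposited table, and under mezigdomide that of ZNF740 (0.22). The same removal ended the iberdomide calls of ZNF266 and ZNF260 and the mezigdomide call of ZNF740.

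Falls were few, and most of the genes that fell have no KRAB box. ZNF672 (ENSG00000171161.13, chromosome 1, 248838210 to 248849517, plus strand), which has 13 fingers, had a log2 fold change of -0.62 (SE 0.081) under iberdomide and -0.64 (SE 0.081) under mezigdomide in the deposited tables. Its adjusted p values in the deposited Wald test were 1.49e-12 and 1.07e-13, and its RNA was at 0.65 and 0.64 of the DMSO level. The next lowest value under mezigdomide was -0.42 for ZNF395 in the deposited table, so that ZNF672 stood apart from the other members at the low end.

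ZNF706, which encodes a small protein with a single finger, was the other member that fell under both drugs, with -0.28 (SE 0.079) and -0.37 (SE 0.079) in the deposited tables. The other 6 falls were called under mezigdomide without a call under iberdomide. None of them passed the test of the difference given below, which is cautious and does not show that the drugs act alike. In the deposited tables ZNF395 had -0.28 under iberdomide and -0.42 under mezigdomide, ZNF787 had -0.16 and -0.37, and ZNF414 had -0.07 and -0.33. ZNF622, ZNF768 and ZNF584 had -0.25, -0.10 and -0.20 under iberdomide and -0.32, -0.25 and -0.25 under mezigdomide in the deposited tables. ZNF584 was the 1 KRAB gene among the 8 that fell, with an adjusted p of 0.0498 in the deposited Wald test. ZNF395 shares 34.9% of its exon bases with another annotated gene on the same strand, so reads there can belong to either. With a trend on GC content and transcript length taken out, ZNF787 stood at 0.00425 and the mezigdomide calls of ZNF414, ZNF622 and ZNF768 were lost.

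The treatments were then compared with each other, at the doses given, which differ. For each gene the iberdomide log2 fold change was subtracted from the mezigdomide one, both from the deposited tables, and the difference was tested with a two-sided normal test that took the errors as independent and adjusted p over 19497 genes by Benjamini-Hochberg. 0 of the 144 members passed, beside 21 of all genes, or 0.108%. At an unadjusted p under 0.05 there were 2 members, 1 in each direction, where 1.49% of all genes reached that level. Because both comparisons share the DMSO libraries, errors taken as independent give an upper limit of the SE. The test is therefore cautious and its intervals are wide, so a lack of calls does not show that the treatments are alike. ZNF746 had the largest difference in size, 0.27 (SE 0.111, 95% interval 0.056 to 0.491), with an adjusted p of 0.9999 by the normal test, and of 0.0731 when the errors were given a correlation of 0.5 for the shared DMSO libraries. ZNF414 had -0.26 (95% interval -0.509 to -0.00156). For ZNF627 the interval ran from -0.078 to 0.355, and for ZNF672 from -0.247 to 0.201, so differences of that size between the treatments remain possible. The median difference over the members was 0.05.

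Within the class, the KRAB genes carried most of the rises. A KRAB A box, scored as at least 8 of 16 conserved positions in the translated sequence, was found in 69 members and not in 75. Of the 69, 19 rose and 0 fell under iberdomide, and 23 rose and 1 fell under mezigdomide, by the deposited Wald test. Of the 75 without the box, 9 rose and 2 fell under iberdomide, and 13 rose and 7 fell under mezigdomide. As shares, rises were 27.5% and 33.3% with the box and 12% and 17.3% without it, in the order of the drugs. Protein-coding genes with the same minimum mean had 9.72% and 14.8%, so members without the box were near that background for rises. Falls were 0% and 1.45% with the box and 2.67% and 9.33% without it, beside 8.08% and 15.5%. The median log2 fold changes of the KRAB members in the deposited tables were 0.16 and 0.20, and those of the other members were 0.03 and 0.07. Of the 69 KRAB members, 59 were above 0 in the deposited mezigdomide comparison, and the lowest after ZNF584 was ZNF777 at -0.22, which did not pass the test. These groups were described and not tested against each other.

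**Figure D2:**
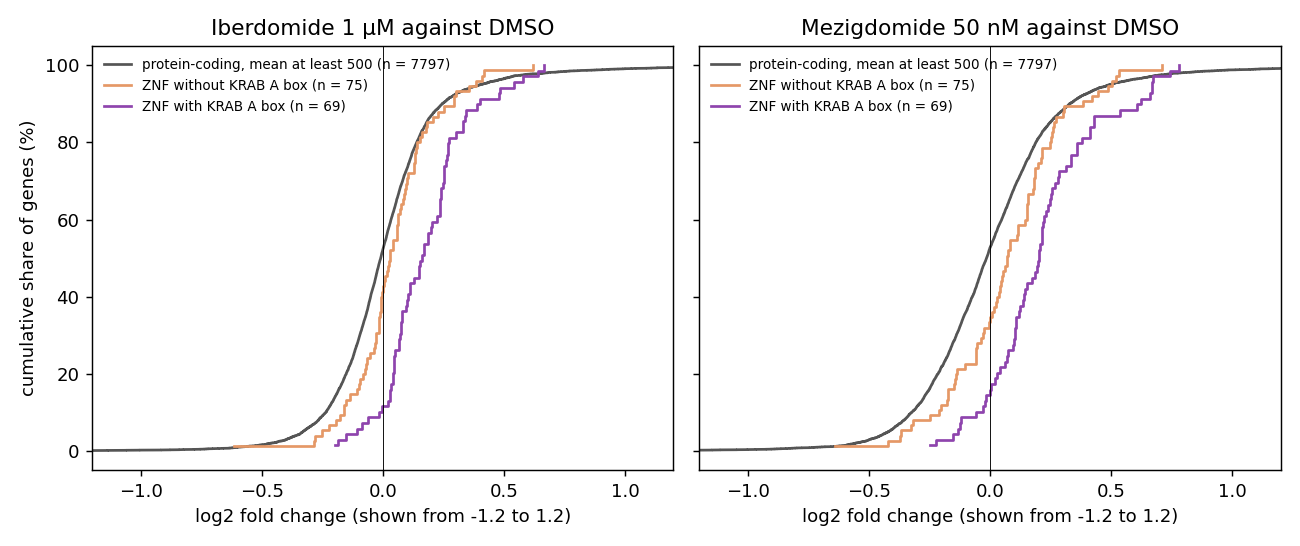
Cumulative share of genes (vertical axis, percent) at or below each log2 fold change over DMSO (horizontal axis) from the authors' deposited tables, for the 69 ZNF genes with a KRAB A box, the 75 without, and the 7797 protein-coding genes with a mean of at least 500. The KRAB line lies to the right of the others over most of its range, with medians of 0.16 (iberdomide) and 0.20 (mezigdomide) against 0.03 and 0.07 for the other ZNF genes.

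Base composition and length moved with these values. Over the members, Spearman's rho between the GC content of the longest transcript and the log2 fold change of the deposited tables was -0.36 under both drugs, and rho with transcript length was 0.28 and 0.34. Over the 7797 protein-coding genes the same values were -0.25 and -0.29 for GC content, and 0.33 and 0.44 for length. All points of a drug come from the same libraries, and genes are not replicates, so these are descriptions. In the tertile of members with the highest GC content 5 rose and 1 fell under iberdomide, and 7 rose and 7 fell under mezigdomide. The shares in that tertile were 10.4% and 2.08%, then 14.6% each. Protein-coding genes with the same minimum mean had 9.72% and 8.08%, then 14.8% and 15.5%, so only the iberdomide falls lay well below that background. The middle tertile had 14 and 17 rises, or 29.2% and 35.4%, and no falls. The lowest had 9 and 12 rises, or 18.75% and 25%, and 1 fall under each drug, so rises were most frequent in the middle tertile. With a trend on GC content and length removed from the deposited values, 18 of the 144 members were higher and 3 lower under iberdomide, and 25 and 7 under mezigdomide. Of the 7797 protein-coding genes with the same minimum mean, 611 were then higher and 682 lower under iberdomide, and 840 and 1195 under mezigdomide. The median of the KRAB members then stood at 0.11 under each drug, while that of the other members was -0.003 and 0.003. The whole class kept medians of 0.03 and 0.05, and the protein-coding genes of the same minimum mean had -0.04 and -0.05.

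**Figure D3:**
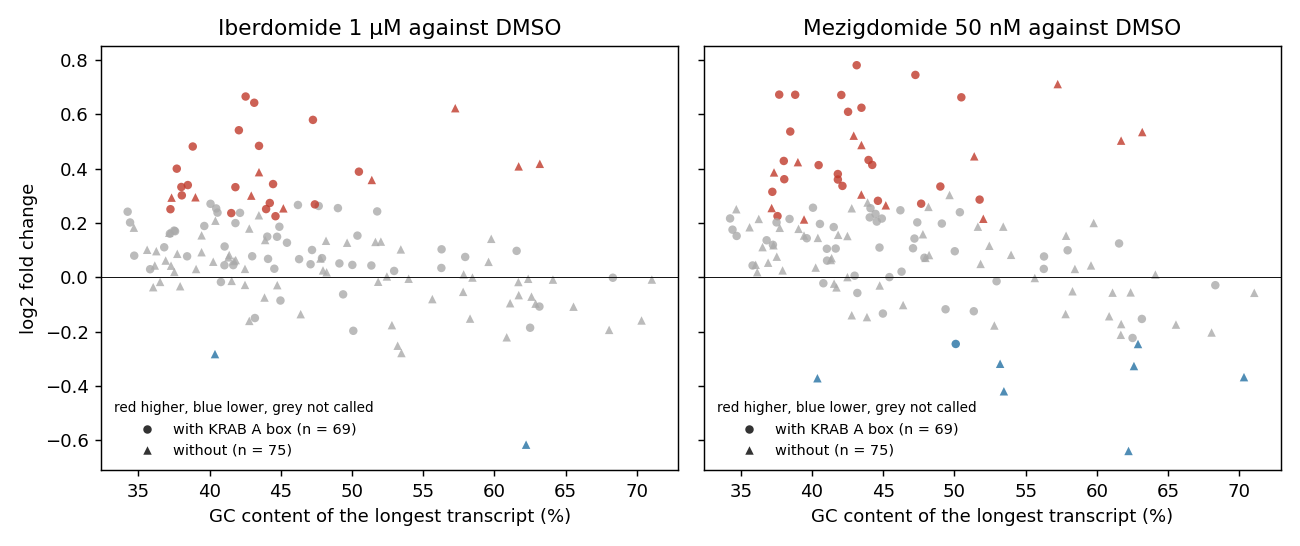
Log2 fold change over DMSO (vertical axis) from the authors' deposited tables against the GC content of the longest transcript (horizontal axis, percent), 1 point per ZNF gene; circles have a KRAB A box (n = 69), triangles do not (n = 75), and red and blue mark genes called higher and lower. Spearman's rho over the 144 genes was -0.36 under each drug, and 7 of the 8 falls under mezigdomide are triangles.

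KRAB members had the higher median in each tertile of GC content. In the lowest tertile the medians in the deposited tables were 0.20 and 0.20 for the 24 KRAB members and 0.07 and 0.11 for the other 24. In the middle tertile they were 0.20 and 0.23 for 31 KRAB members, against 0.06 and 0.16 for 17 others. In the highest tertile, with 14 KRAB members and 34 others, they were 0.04 and 0.05 against -0.01 and -0.03. KRAB membership is also tied to chromosome 19, which holds the large ZNF clusters. The 34 KRAB members there had medians of 0.23 and 0.22 in the deposited tables, and the 35 KRAB members elsewhere had 0.08 and 0.14. The 16 members on chromosome 19 without a KRAB box had 0.01 and 0.00, and the 59 without it elsewhere had 0.04 and 0.11. Off chromosome 19 the medians with and without the box thus lay closer together than on it.

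Members with the degron-like pattern were set beside the rest, without a test between them. A Q-C-x-x-C-G finger was found in 42 members, in 51 of the 1399 C2H2 fingers of the class. Of these 42, 8 rose and 1 fell under iberdomide and 13 rose and 1 fell under mezigdomide by the deposited Wald test. The 102 members without the pattern had 20 rises and 1 fall, then 23 and 7. As shares, rises were 19.05% with and 19.6% without the pattern under iberdomide, and 31.0% and 22.5% under mezigdomide, and falls were 2.38% and 0.98%, then 2.38% and 6.86%. The medians in the deposited tables were 0.08 with and 0.08 without the pattern under iberdomide, and 0.12 and 0.15 under mezigdomide. With the trend on GC content and length taken out they were 0.06 with and 0.03 without the pattern under iberdomide, and 0.07 and 0.04 under mezigdomide, so that the order under mezigdomide turned. ZNF45, with 3 such fingers, had 0.27 and 0.25 in the deposited tables and passed neither test. The shorter pattern C-x-x-C-G, which the degron also needs, was found in 985 of the 1399 fingers and in 121 members, so it separates few of them. RNA of IKZF1 itself, which is no member, had 0.76 and 0.98 in the deposited tables, and that of CRBN, which encodes cereblon, had 0.03 and -0.06 and was not called.

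Members with more fingers had somewhat higher values. KRAB members also had more fingers, with a median of 11 beside 7 in the other members, and these traits were not separated here. In the tertile with the fewest fingers, 55 members, the medians in the deposited tables were 0.04 and 0.10, with 8 and 11 rises. In the middle tertile, 41 members, they were 0.10 and 0.15, with 7 and 10 rises. In the tertile with the most, 48 members, they were 0.13 and 0.20, with 13 and 15 rises. As shares, rises were 14.5% and 20% in the tertile with the fewest and 27.1% and 31.25% in that with the most. Protein-coding genes with the same minimum mean had 9.72% and 14.8%. ZNF142, with 31 fingers the longest row in the class, had -0.001 and 0.03 in the deposited tables.

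The members with better known roles are given by list. Their shares of rises under mezigdomide, 10%, 9.09%, 18.2% and 25% in the order below, rest on 4 to 11 genes a list and lie around the 14.8% of protein-coding genes with the same minimum mean. Chromatin and corepressor ZNF genes comprised 10 members of a list of 15, and 0 changed under iberdomide and 1 rose under mezigdomide by the deposited Wald test. The 1 was ZNF217, a partner of the CoREST and CtBP corepressors that is amplified in breast cancer, with 0.23 (SE 0.107, not called) and 0.30 (SE 0.107) in the deposited tables. ZNF521, a cofactor of immature haematopoietic cells, had -0.14 and -0.10, and ZNF281, a repressor linked to pluripotency, had 0.06 and 0.16 in the deposited tables, with no call. ZNF592 and ZNF687, subunits of the complex that forms around ZMYND8, had -0.02 and -0.15 under iberdomide and 0.05 and -0.05 under mezigdomide in the deposited tables.

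Promoter-binding regulators numbered 11 of 11 on their list, with 0 calls under iberdomide and 1 rise under mezigdomide. ZNF24, a SCAN domain factor, was the 1, with 0.16 and 0.25 (SE 0.091 each) in the deposited tables. ZNF143 and its relative ZNF76, which bind promoters and, for ZNF143, snRNA genes, had 0.03 and -0.08 under iberdomide and 0.15 and -0.003 under mezigdomide in the deposited tables. ZNF410, a regulator of CHD4 that thereby silences fetal globin, had -0.03 under each drug in the deposited tables. ZNF384, a factor fused to other genes in acute leukaemias, had 0.10 and 0.19 with a SE of 0.166 under each drug, so a change of that size was not detectable.

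Genes for RNA-binding, ribosome and ubiquitin or SUMO proteins were 11 of 11 on their list. ZNF385A, which binds RNA and p53, was the 1 that rose under iberdomide, and under mezigdomide it rose along with ZNF638 while ZNF622 fell. The values in the deposited tables were 0.42 and 0.53 for ZNF385A, 0.15 and 0.21 for ZNF638, a partner of the HUSH silencing complex on unintegrated retroviral DNA, and -0.25 and -0.32 for ZNF622, a factor of ribosome assembly. ZNF598, the ubiquitin ligase that senses collided ribosomes, had -0.11 and -0.17, and ZNF207 (BuGZ), a spindle protein with the highest mean in the class, 8001 normalised counts, had 0.06 and 0.05 in the deposited tables, with no call. The KRAB genes listed for transposon or imprint control had 4 of 10 members past the minimum. Of these ZNF268 rose, with 0.33 and 0.38 in the deposited tables, while ZNF274, which recruits silencing to ZNF gene clusters, had 0.04 and -0.12, and ZNF445, a keeper of imprints, had 0.05 and 0.11. The medians of these 4 lists lay between 0.02 and 0.12 in the deposited tables, and, with the trend on GC content and length taken out, between -0.13 and 0.01. The medians of all 4 lists under iberdomide, and of the last 2 under mezigdomide, were then below 0. The medians of the protein-coding genes moved down as well, to -0.04 and -0.05, and of the list medians below 0 only that of the transposon and imprint list under mezigdomide, at -0.13, was lower than these. With the trend taken out, the mezigdomide calls of ZNF217, ZNF24, ZNF638, ZNF622 and ZNF268 and the iberdomide call of ZNF268 were lost, and ZNF207 stood at -0.205 under mezigdomide.

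**Figure D4:**
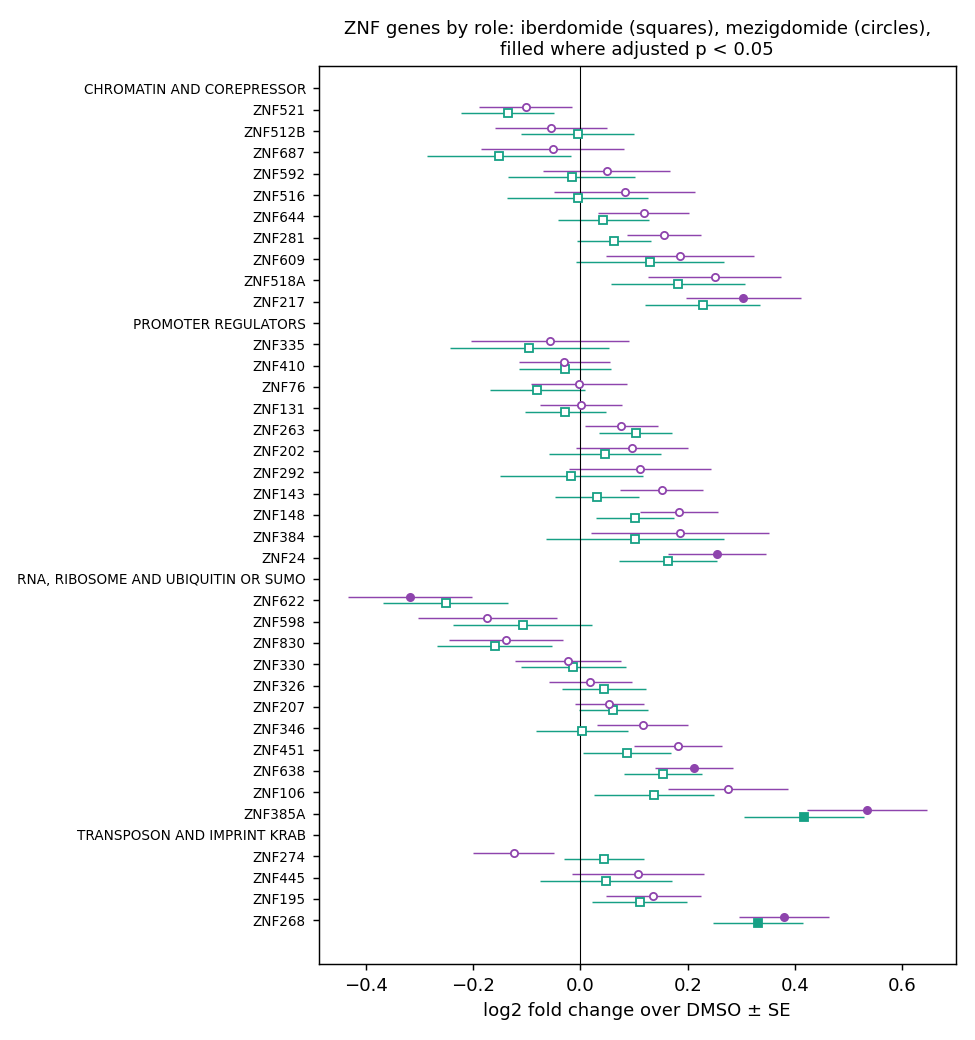
Log2 fold change over DMSO (horizontal axis) ± 1 SE of the ZNF genes in 4 role lists, from the authors' deposited tables; squares are iberdomide, circles mezigdomide, and filled symbols have an adjusted p under 0.05. ZNF385A and ZNF268 are filled for both drugs, ZNF217, ZNF24, ZNF638 and ZNF622 for mezigdomide.

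The partners through which KRAB proteins silence chromatin were measured next. Of 20 corepressor genes fixed as a list, 1 rose under iberdomide and 3 rose and 2 fell under mezigdomide by the deposited Wald test. These are 5% and 0%, then 15% and 10%, beside 9.72% and 8.08%, then 14.8% and 15.5%, of protein-coding genes with a mean of at least 500, so that the list was near or below the background. CBX5, which encodes the heterochromatin protein HP1α, had 0.39 and 0.50 (SE 0.124 each) in the deposited tables. The histone methyltransferase gene SETDB1 had 0.20 and 0.30, and TASOR, a HUSH subunit, had 0.16 and 0.31 in the deposited tables. TRIM28, the direct partner of the KRAB box, had -0.10 and -0.21, and UHRF1, which guides DNA methylation, had -0.15 and -0.22 in the deposited tables. With the trend on GC content and length taken out, 0 were called under iberdomide, and 3 under mezigdomide, all lower.

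Symbols that start with ZBTB, ZSCAN, ZKSCAN or ZFP, prefixes used for other C2H2 genes, had 37 genes past the same minimum. Of these ZFP36 and ZFP36L2 encode CCCH finger proteins that bind RNA, and ZBTB8OS is named for lying opposite ZBTB8 and is no finger gene. Without them, 1 of 34 genes rose and 1 fell under iberdomide, and 7 rose and 1 fell under mezigdomide. The shares of rises, 2.94% and 20.6%, compare with 9.72% and 14.8% of protein-coding genes with the same minimum mean. The share of falls was 2.94% under each drug, beside 8.08% and 15.5% of those genes and 1.39% and 5.56% of the ZNF genes. Few falls were thus not particular to the ZNF genes. Medians in the deposited tables were 0.05 and 0.13, beside 0.08 and 0.14 for the ZNF genes. With the trend on GC content and length taken out, 1 rose and 3 fell under iberdomide and 4 rose and 3 fell under mezigdomide, with medians of 0.01 and 0.07. ZKSCAN1, the highest, had 0.33 and 0.51, and ZFP64, a regulator of the KMT2A promoter in leukaemias with KMT2A rearrangements, had -0.29 and -0.33 in the deposited tables.

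Neighbouring ZNF genes did not all move together. 41 members lay within 100 kb of another member, in 19 clusters. In the deposited mezigdomide table ZNF780A and ZNF780B both rose, and so did ZNF397 and ZNF24 on chromosome 18 (0.52 and 0.25). The calls of ZNF780B and ZNF24 were lost with the GC and length trend taken out. ZNF777, next to ZNF746 on chromosome 7, had -0.22 where ZNF746 had 0.66 in that deposited table. ZNF787 and its neighbour ZNF444 had -0.37 and -0.14 there, and ZNF444 was not called.

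The promoters of the class were searched for a pair of 6-base cores, since Ikaros and ETS factors are prominent in blood cells. RefSeq promoters of 250 bases before the start site, build GRCh38.p14, were found for 123 of the 144 members, and both strands were searched. The Ikaros core TGGGAA occurred in 30.1% of the members' promoters, in 18.9% of those of protein-coding genes with the same minimum mean and in 21.1% of all promoters in the RefSeq set. The ETS core CCGGAA occurred in 44.7%, 29.6% and 14.8%. Among KRAB members the ETS core was in 56.7%, and among the others in 33.3%. By call under mezigdomide, it was in 45.2% of 31 promoters of members that rose, in 3 of 6 of those that fell and in 44.2% of 86 of those not called. The Ikaros core was in 35% of the KRAB members' promoters and in 25.4% of the others', and by call in 9 of 31 of those that rose, 1 of 6 of those that fell and 31.4% of those not called. ZNF791, which rose, at chr19:12610670-12610919 on the plus strand, and ZNF787, which fell, at chr19:56121296-56121545 on the minus strand, are printed as an example of each, with the core in capitals on either strand.
ZNF791: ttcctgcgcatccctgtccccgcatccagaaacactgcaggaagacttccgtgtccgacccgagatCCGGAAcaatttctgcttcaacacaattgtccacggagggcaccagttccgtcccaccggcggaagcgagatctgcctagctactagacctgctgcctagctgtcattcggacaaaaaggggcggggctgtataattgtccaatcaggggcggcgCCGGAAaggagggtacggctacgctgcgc
ZNF787: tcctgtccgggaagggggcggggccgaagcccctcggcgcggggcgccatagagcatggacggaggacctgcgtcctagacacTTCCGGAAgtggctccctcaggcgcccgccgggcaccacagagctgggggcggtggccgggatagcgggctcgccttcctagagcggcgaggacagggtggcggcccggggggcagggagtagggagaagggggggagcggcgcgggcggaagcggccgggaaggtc
Both promoters hold the ETS core at 2 places, which in ZNF787 overlap on opposite strands. A match is a description of the letters and no evidence of binding, and the promoters printed were chosen after the shares and the fold changes were seen.

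The minimum mean cuts through a continuous range. Just inside it, by the mean of the deposited tables, were ZNF440 (500.4), ZNF83 (501.9), ZNF124 (503.3) and ZNF641 (505.8), with mezigdomide log2 fold changes of 0.34, -0.04, 0.41 and 0.74. Since the mean includes the drug libraries, ZNF440, ZNF124 and ZNF641, which were above 0 under both drugs, can have passed only through those libraries. The same holds for ZNF211, ZNF33B, ZNF260 and ZNF557, with means of 532, 552, 559 and 588, which were also above 0 under both drugs. All of these genes count among the 36 rises under mezigdomide. Just outside were ZNF708 (495.6), ZNF628 (495.1), ZNF224 (494.1) and ZNF697 (485.7), with 0.12, -0.26, 0.43 and 1.30.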

How the data were processed

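Poly(A) RNA of MOLM13 cells was read as 37 bp paired-end reads, per the labels' protocols; the library kit is not stated to keep strand. Per the submitters' processing notes, STAR 2.7.5a, HTSeq 0.6.1pl, Picard 2.9.4, SAMtools 1.95 and DESeq2 were used on GRCh38, with no roles given. Per the file headers, the authors' 2 tables hold a mean normalised signal over all libraries (counts divided by size factors), a log2 fold change over DMSO with its standard error, the Wald statistic (a score), and the p-value of that statistic before and after adjustment. The tables hold no counts, so no count test could be run, and the authors' Wald test is the main test. Library depth was taken from the means of genes with 1 read in 1 library and is approximate.

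From these tables were computed, with Python 3.11.15, pandas 2.3.3 and scipy 1.17.1, the counts, medians, difference test and alternatives; the difference test was tested on simulated data. 92 rows with no gene name (3.39e-05% of the deposited normalised counts) and 44 second copies on chromosome Y were left out. Lengths, GC content and fingers (cysteines and histidines 12 residues apart) came from GENCODE 29, using the longest complete coding transcript in place of the RefSeq proteins planned. The KRAB minimum of 8 positions was set after the scores were seen; 7 members scored 8 to 10.

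Members and lists were chosen with earlier results of these data known. The genes named are taken from the 10 highest and 10 lowest called members under each drug, those called for the difference, the 4 role lists and members with a Q-C-x-x-C-G finger; others are named as examples of a group. The ETS core was chosen for printing, and the promoter backgrounds were added, after motif shares were seen. About 40 groupings were tabulated as descriptions. The alternatives were another threshold, centring, GC and length trend removal, other sets of genes for the adjustment, other minimum means and exclusion of genes that share exon bases.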

Additional observations from a re-analysis of the deposited data

How the results depend on the processing

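The direction of the class median did not depend on the settings tried: it lay between 0.03 and 0.10 under iberdomide and between 0.05 and 0.15 under mezigdomide. With the GC and length trend removed, however, the 69 members with a mean of 1000 or more had medians of -0.002 and 0.006. The 75 under 1000 then had 0.08 and 0.11, and the protein-coding genes with a mean of at least 500 had -0.04 and -0.05. At a minimum mean of 1000 the members called numbered 13 and 21, and at 250 they numbered 46 and 71, because the class itself changes size. Under the other settings 20 to 33 members were called under iberdomide and 32 to 50 under mezigdomide, and the difference between the drugs called 0 under every setting. Of the KRAB corepressor genes, 0 were called under iberdomide and 1 under mezigdomide at an adjusted p under 0.01, 0 and 3 with the GC and length trend removed, and 2 under mezigdomide with no filter on low counts; the cause was not tested. With the trend removed the mezigdomide values of ZNF207 and ZNF787 changed sign, to -0.205 (adjusted p 0.0106 by the recomputed normal test) and 0.00425 (adjusted p 0.985). Of the named calls under mezigdomide, those of ZNF217, ZNF24, ZNF638, ZNF622, ZNF268, ZNF414, ZNF768 and ZNF780B were among those lost by that removal, and under iberdomide those of ZNF268, ZNF397 and ZNF780B; ZNF395 then passed under iberdomide and ZNF274, lower, under mezigdomide. A KRAB minimum of 11 positions, an alternative chosen after seeing the data, left 62 genes. Of these, 18 were called under iberdomide and 22 under mezigdomide in either direction, beside 19 and 24 of the 69 genes at 8 positions. Among the 7797 protein-coding genes with a mean of at least 500, 1388 and 2369 were called in either direction in the deposited tables. No such background is given here for minimum means of 1000 and 250. Over all settings, a single named gene lost its call in 51 cases and gained one in 19. In 41 further cases a named gene that was called under neither setting changed sign, and these are not counted as reversals.

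No paired analysis was possible because the tables hold no value per library. Leaving out a replicate, a block on the replicate number, and edgeR in place of the deposited size factors were not run for the same reason. Whether 1 library decides a value is therefore not known, and depth is known only as a range over libraries.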

Other observations

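The ZNF genes under the minimum mean of 500 normalised counts also had more rises than falls. Of 254 tested under iberdomide, 26 were higher and 4 lower in the authors' deposited table, and of 264 tested under mezigdomide 47 were higher and 5 lower. These are 10.2% and 1.57%, then 17.8% and 1.89%, beside 7.3% and 6.77%, then 10.4% and 10.7%, of all genes tested. Their median log2 fold changes in the deposited tables were 0.15 and 0.14. ZNF205 had 2.12 and 2.15, ZNF697 had 1.02 and 1.30, and ZNF334 had 1.01 and 1.27, all larger than any value among the genes above the minimum. ZNF792 was the lowest, at -1.35 and -1.33 in the deposited tables. These 4 genes were chosen after their values were seen.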
